A study of Rattus norvegicus with 11 samples.

Results

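Transcripts of 10 inflammatory chemokines and cytokines were followed in rat renal cortex across diabetes and gastric bypass surgery. The genes were Ccl2, Ccl5, Ccl20, Cxcl1, Cxcl2, Cxcl9, Cxcl10, Il1b, Il6 and Tnf. They were taken from a fixed list and matched to the array by gene name, and all 10 were among the 25250 genes tested, of which 14358 carry a name. The data come from 11 single-colour oligonucleotide arrays in 4 groups. Control+Sham (3 arrays) are SD rats without diabetes that had a sham operation, and Control+RYGB (3 arrays) are such rats after Roux-en-Y gastric bypass (RYGB), in which a small gastric pouch is joined to the jejunum. DM+Sham (3 arrays) and DM+RYGB (2 arrays) are rats with type 1 diabetes (DM) induced by STZ (streptozotocin, which kills the beta cells of the pancreas), after the sham operation or the bypass. Surgery followed 4 weeks after induction, and cortex was taken 4 weeks after surgery. No age, sex or genotype is given in the sources used here, and nothing there says that the arrays of a group are separate animals, so p-values measure only the spread between these samples, which may be technical.

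Chemokines are small secreted proteins that direct leukocytes to a tissue through receptors on the leukocyte surface, and cytokines such as Il1b, Il6 and Tnf switch on the genes that make them. In the kidney, tubule cells, endothelium and resident macrophages can all produce these proteins, and Ccl2 is known from work on diabetic kidney disease as the main attractant of monocytes. Transcription of most of them depends on NF-kB, a factor held in the cytoplasm by inhibitors such as Nfkbia until a receptor signals. Cxcl9 and Cxcl10 belong to the chemokines induced by interferons and share the receptor Cxcr3 on T cells. On this textbook basis Ccl2, Ccl20, Cxcl1, Cxcl2, Il1b, Il6 and Tnf were set as NF-kB driven, Cxcl9 and Cxcl10 as interferon driven, and Ccl5 as driven by both.

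The stretches of promoter that hold a match to a binding motif are shown beside the division into NF-kB and interferon driven genes. That division was set on the textbook basis above and not from these matches. RefSeq promoters of the build GRCr8, 250 bases before and 50 after the annotated start, were at hand for 8 of the 10 genes, not for Ccl2 and Ccl5. The NF-kB consensus (searched by its usual degenerate form, on both strands, overlapping matches merged) was found in 5 of these 8, and in 4.18% of all 33469 promoters of that length. The windows follow 5′ to 3′ on the strand of the gene, with the matches in capitals. Those of Cxcl1, Cxcl2, Ccl20 and Il6 hold the NF-kB match alone, and the one of Cxcl10 holds, in this order, a match to the interferon-stimulated response element (ISRE, GAAANNGAAA), the NF-kB match and a match to the AP-1 motif (TGANTCA). Cxcl11, the neighbour of Cxcl10, is added because its values are set beside Cxcl10, and its window holds the AP-1 match and then the NF-kB match.
Cxcl1: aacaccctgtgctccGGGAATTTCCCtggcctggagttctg
Cxcl2: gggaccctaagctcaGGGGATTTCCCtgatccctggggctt
Ccl20: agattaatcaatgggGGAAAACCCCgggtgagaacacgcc
Il6: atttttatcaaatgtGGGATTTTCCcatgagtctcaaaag
Cxcl10: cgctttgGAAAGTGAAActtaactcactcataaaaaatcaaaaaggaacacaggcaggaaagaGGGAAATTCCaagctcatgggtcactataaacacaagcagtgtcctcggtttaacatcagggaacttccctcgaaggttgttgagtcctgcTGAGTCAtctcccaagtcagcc
Cxcl11: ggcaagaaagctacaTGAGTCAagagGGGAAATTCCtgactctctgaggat

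In GRCr8 these windows lie at chr14:17479380-17479420 on the minus strand (Cxcl1), chr14:17467304-17467344 minus (Cxcl2), chr9:91837055-91837094 plus (Ccl20), chr4:5894619-5894658 minus (Il6), chr14:15988816-15988991 plus (Cxcl10) and chr14:15973628-15973678 plus (Cxcl11). All of them are upstream of the annotated start, counted from -1 at the base before it. The NF-kB matches end between -59 (Il6) and -80 (Ccl20) in the first 4 windows and at -65 in Cxcl11, against -178 in Cxcl10. The ISRE was found in 1 of the 8 genes, Cxcl10, and in 3.92% of all promoters, and the AP-1 motif in 1 of the 8, again Cxcl10, and in 7.33%. The gamma-activated site (TTCNNNGAA) was found in 8.87% of promoters and in 1 of the 8, Cxcl9, from 33 to 41 after the start. Il1b and Tnf had no match to the 4 motifs in this window. Cxcl11, which is not among the 8, also had a match to the gamma-activated site, from -250 to -242, upstream of the stretch shown. A match describes the letters and is not a measured binding site.

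Every value below is the log2 of the deposited spot signal minus the log2 of the 75th percentile of its array, so a difference of 1 log2 unit is a 2-fold difference in signal. Each gene had 1 probe, except Ccl20 with 2, and all 11 probes were well above background on all 11 arrays. Between 77.7% and 93.5% of the 30367 probes on an array were well above background, and the 75th percentile of signal ran from 1541 to 4454. DM+Sham 2 and 3, and Control+RYGB 2 and 3, differed by less than or about as much as repeated spots of 1 array, and each pair was averaged into 1 sample, which left 3 Control+Sham samples and 2 in every other group. The 10 proximal tubule markers were well above background on all arrays, as renal cortex should show. DM+RYGB 2 stood apart by heart and skeletal muscle markers, whose summed level was 8.34 against -1.27 to -0.05 on the other 10 arrays. Urothelial markers, which are not of the cortex, were at 1.12 to 1.24 in Control+Sham, against -2.18 to -2.12 in DM+Sham, -2.37 to -1.99 in Control+RYGB and -1.23 to -0.84 in DM+RYGB.

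Most of the 10 genes were lower in diabetic rats, and Cxcl2 and Il6 were called after RYGB in both diabetic and control rats, Cxcl2 in opposite directions. In DM+Sham against Control+Sham 7 of 10 fell (7.58% of all genes tested were called lower) and 0 rose (8.96% were called higher). In DM+RYGB against DM+Sham 4 rose, against 41.9% of all genes, and 1 fell, against 10.9%, so the share that rose is at the background. In Control+RYGB against Control+Sham 3 rose, against 21.6%, and 2 fell, against 5.5%. Among operated rats, DM+RYGB against Control+RYGB, 6 fell, against 10.6%, and 0 rose, against 20.1%. In DM+RYGB against Control+Sham 7 fell, against 12.0%, and 0 rose, against 48.5%. The interaction, which tests whether RYGB acted differently in diabetic and control rats, was positive for 3 members, against 13.4% of genes, and negative for 2, against 8.7%. At an unadjusted p under 0.05 the number higher was still 0 in DM+Sham against Control+Sham and in DM+RYGB against Control+RYGB, and 1 in DM+RYGB against Control+Sham. A call is an adjusted p under 0.05 in limma with Benjamini-Hochberg adjustment over all genes tested, and all adjusted p-values below are of this kind. The comparisons share groups, so their counts are not independent of each other.

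Several of these counts depend on how arrays are scaled, because the 75th percentile left the median of all genes at 0.57 in DM+RYGB against DM+Sham, 0.59 in DM+RYGB against Control+Sham, 0.29 in Control+RYGB against Control+Sham, 0.27 in DM+RYGB against Control+RYGB and 0.23 in the interaction. In DM+Sham against Control+Sham it was 0.03. The share of calls over all genes that were higher was 79.3% in DM+RYGB against DM+Sham, but 37.6% with arrays scaled to their median and 38.6% with quantile scaling. The same 3 shares were 54.2%, 42.0% and 53.4% in DM+Sham against Control+Sham, and 79.7%, 42.6% and 40.2% in Control+RYGB against Control+Sham. They were 65.4%, 29.7% and 45.8% in DM+RYGB against Control+RYGB, 80.2%, 36.7% and 42.5% in DM+RYGB against Control+Sham, and 60.7%, 35.7% and 43.3% in the interaction. Under all 3 scalings, a condition added after the data were seen, the members called were 5 lower in DM+Sham against Control+Sham, 1 higher (Cxcl1) and 1 lower (Tnf) in DM+RYGB against DM+Sham, 2 higher (Cxcl10 and Ccl20) and 2 lower (Ccl2 and Cxcl2) in Control+RYGB against Control+Sham. The same 6 and 7 members were lower in the other comparisons of DM+RYGB, and the interaction was positive for Cxcl1 and Cxcl2 and negative for Cxcl10 and Ccl20.

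**Figure D1:**
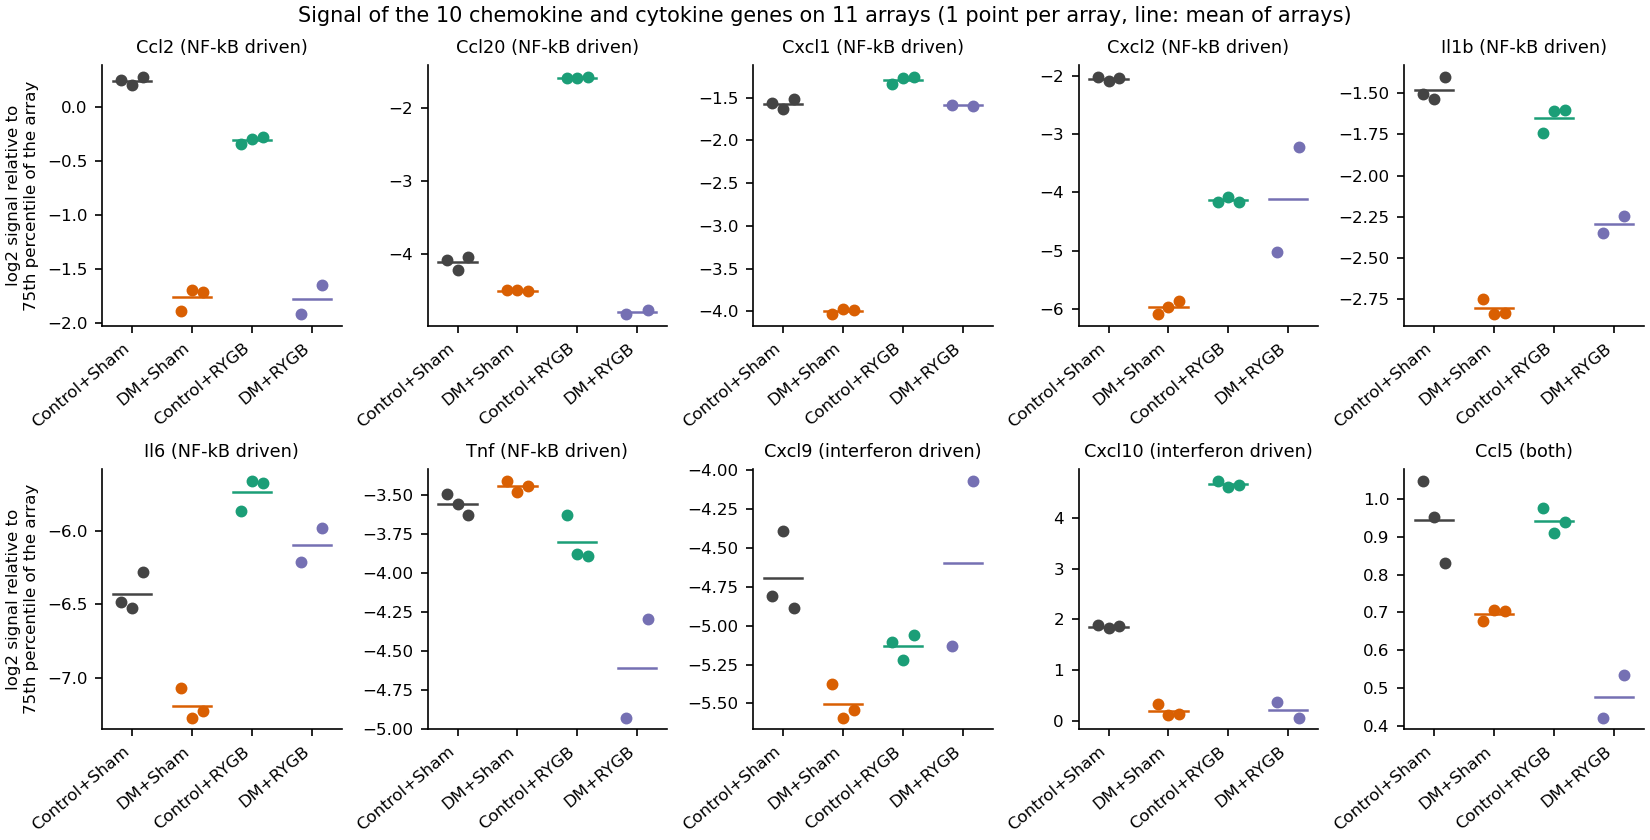
Log2 signal relative to the 75th percentile of the array (y axis) for each of the 10 genes, with 1 point per array and a line at the mean of the arrays of a group. Cxcl1 is low in DM+Sham alone, Cxcl10 and Ccl20 are high in Control+RYGB alone, Ccl2 is low in both diabetic groups, and the 2 DM+RYGB arrays differ most in Cxcl2 (-5.01 and -3.22).

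Cxcl1 and Cxcl2, neutrophil attractants that act through the receptor Cxcr2, showed the largest falls of the 10 with diabetes in sham rats. Cxcl1 was at -1.57, -1.63 and -1.52 on the Control+Sham arrays, -4.03, -3.98 and -3.98 on DM+Sham, -1.34, -1.27 and -1.26 on Control+RYGB, and -1.58 and -1.60 on DM+RYGB. The DM+Sham arrays lay apart below all others, and the DM+RYGB arrays lay within the range of Control+Sham. Cxcl1 fell by 2.43 in DM+Sham against Control+Sham (SE 0.092, adjusted p = 5.5e-05) and rose by 2.42 in DM+RYGB against DM+Sham (SE 0.10, adjusted p = 0.00012). Both calls held in all 22 alternative settings, where the rise ran from 1.61 to 2.44. DM+RYGB and Control+Sham differed by -0.02 (SE 0.092, adjusted p = 0.88), but by -0.69 with median scaling (adjusted p = 0.0028) and -0.35 with quantile scaling (adjusted p = 0.040). In control rats the difference after RYGB was 0.27 (adjusted p = 0.068), and the interaction was 2.14 (SE 0.14, adjusted p = 0.00043). Among operated rats the difference with diabetes was -0.29 (adjusted p = 0.073), and it was called with median scaling (-0.65, adjusted p = 0.0096) and quantile scaling (-0.47, adjusted p = 0.028). Arrays scanned on the same day gave -2.40 and -2.46 for diabetes in sham rats and 2.40 for RYGB in diabetic rats.

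Cxcl2 was at -2.02, -2.09 and -2.03 on Control+Sham, -6.08, -5.96 and -5.86 on DM+Sham, -4.16, -4.08 and -4.17 on Control+RYGB, and -5.01 and -3.22 on DM+RYGB. Control+Sham was the highest group and DM+Sham the lowest, without overlap, and the Control+RYGB arrays lay between the 2 arrays of DM+RYGB. Cxcl2 fell by 3.95 in DM+Sham against Control+Sham (SE 0.46, adjusted p = 0.0027), a 15.4-fold lower signal. It also fell in Control+RYGB against Control+Sham, by 2.09 (SE 0.46, adjusted p = 0.022). In DM+RYGB against DM+Sham it rose by 1.88 (SE 0.50, adjusted p = 0.020), with 1.28 under median scaling (adjusted p = 0.079) and 0.95 under quantile scaling (adjusted p = 0.25). That rise was not called in 8 of the 22 settings, and on the scan day that DM+RYGB 1 and DM+Sham 3 share it was 0.84. The interaction was 3.97 (SE 0.68, adjusted p = 0.0090). Against Control+RYGB the difference of DM+RYGB was 0.02, and it was -0.85 and 0.90 on the 2 scan days, 1 DM+RYGB array on each. DM+RYGB 2, the array with the muscle markers, was the higher one, and the part of this tissue in its value was not tested.

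Ccl2, the monocyte attractant that acts through Ccr2, was low in both diabetic groups. Its values were 0.24, 0.20 and 0.27 on Control+Sham, -1.88, -1.69 and -1.71 on DM+Sham, -0.34, -0.30 and -0.28 on Control+RYGB, and -1.91 and -1.64 on DM+RYGB. The diabetic groups overlapped each other and lay apart from both control groups. Ccl2 fell by 2.03 in DM+Sham against Control+Sham (SE 0.12, adjusted p = 0.00026) and by 1.46 in DM+RYGB against Control+RYGB (SE 0.13, adjusted p = 0.0007), and both calls held in all 22 settings. RYGB in diabetic rats gave 0.01 (SE 0.13, adjusted p = 0.93), or -0.59 with median scaling (adjusted p = 0.027) and -0.34 with quantile scaling (adjusted p = 0.15). In control rats Ccl2 fell by 0.56 (adjusted p = 0.021), and the interaction of 0.57 did not pass (adjusted p = 0.061). Within scan days the diabetic sham arrays were 2.09 and 1.97 lower (differences of -2.09 and -1.97), and the diabetic operated arrays differed by -1.57 and -1.35.

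Ccl5, which draws T cells and monocytes, fell in DM+RYGB against both control groups. It was at 1.05, 0.95 and 0.83 on Control+Sham, 0.68, 0.71 and 0.70 on DM+Sham, 0.98, 0.91 and 0.94 on Control+RYGB, and 0.42 and 0.53 on DM+RYGB. Its 2 control groups overlapped, and DM+RYGB was the lowest group. The difference was -0.25 in DM+Sham against Control+Sham (adjusted p = 0.15) and 0.01 in Control+RYGB against Control+Sham (adjusted p = 0.97). Ccl5 fell by 0.47 in DM+RYGB against Control+RYGB (SE 0.12, adjusted p = 0.023) and by 0.47 against Control+Sham (SE 0.11, adjusted p = 0.0091). With median scaling these differences were -0.84 (adjusted p = 0.0075) and -1.14 (adjusted p = 0.00079). RYGB in diabetic rats gave -0.21 (adjusted p = 0.16), and -0.82 with median scaling (adjusted p = 0.0052). The fall against Control+RYGB was not called without Control+RYGB 1 or without the averaged Control+RYGB 2 and 3.

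Ccl20, which attracts cells that carry Ccr6, such as Th17 cells, was high in operated control rats. The probe with the higher signal was at -4.08, -4.21 and -4.04 on Control+Sham, -4.49, -4.49 and -4.50 on DM+Sham, -1.59, -1.60 and -1.58 on Control+RYGB, and -4.81 and -4.76 on DM+RYGB. The second probe was at -4.69, -4.78 and -4.58, at -5.01, -5.26 and -5.25, at -1.99, -2.06 and -2.06, and at -5.28 and -5.59 in the same order. With either probe the Control+RYGB arrays lay far above the rest, and DM+RYGB was the lowest group. Ccl20 rose by 2.52 in Control+RYGB against Control+Sham (SE 0.097, adjusted p = 7.9e-05, and 2.66 with the second probe). It fell by 3.20 in DM+RYGB against Control+RYGB (SE 0.11, adjusted p = 4.4e-05), a call that held in all 22 settings, and the interaction was -2.81 (SE 0.14, adjusted p = 0.00025). The fall of 0.38 in DM+Sham against Control+Sham (SE 0.097, adjusted p = 0.041) was not called with the second probe (-0.45, adjusted p = 0.073) and was called in 11 of 22 settings. RYGB in diabetic rats gave -0.30 (adjusted p = 0.053), and -0.90 with median scaling (adjusted p = 0.0017).

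Cxcl10, an attractant of T cells through Cxcr3, showed the largest difference of any member. It was at 1.88, 1.83 and 1.86 on Control+Sham, 0.33, 0.12 and 0.13 on DM+Sham, 4.73, 4.60 and 4.64 on Control+RYGB, and 0.37 and 0.07 on DM+RYGB. The Control+RYGB arrays were the highest, Control+Sham came next, and the 2 diabetic groups overlapped at the bottom. Cxcl10 rose by 2.82 in Control+RYGB against Control+Sham (SE 0.13, adjusted p = 0.00016) and fell by 4.46 in DM+RYGB against Control+RYGB (SE 0.14, adjusted p = 4e-05), a 21.9-fold lower signal that was -4.36 and -4.55 within the 2 shared scan days. With diabetes in sham rats it fell by 1.63 (SE 0.13, adjusted p = 0.00065). RYGB in diabetic rats gave -0.01 (SE 0.14, adjusted p = 0.96), or -0.61 with median scaling (adjusted p = 0.0087), and the interaction was -2.82 (SE 0.19, adjusted p = 0.00047).

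Cxcl9, which shares the receptor Cxcr3 and lies next to Cxcl10, did not follow it. Its values were -4.81, -4.39 and -4.89 on Control+Sham, -5.38, -5.59 and -5.54 on DM+Sham, -5.10, -5.22 and -5.06 on Control+RYGB, and -5.13 and -4.07 on DM+RYGB. The 3 Control+RYGB arrays were below all Control+Sham arrays, and the DM+RYGB arrays differed from each other by more than the arrays of any other group. No comparison of Cxcl9 passed the threshold, with -0.43 after RYGB in control rats (adjusted p = 0.33), -0.78 with diabetes in sham rats (adjusted p = 0.14) and 0.87 after RYGB in diabetic rats (adjusted p = 0.067). The higher DM+RYGB value is that of DM+RYGB 2, the array with the muscle markers. RYGB in diabetic rats gave 0.34 without that array (adjusted p = 0.24) and 1.40 without DM+RYGB 1 (adjusted p = 0.0068), and the part of muscle tissue in it was not tested.

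Il1b, the cytokine released by inflammasomes after cleavage by Casp1, was lower in both diabetic groups, as Ccl2 was. It was at -1.50, -1.53 and -1.40 on Control+Sham, -2.75, -2.84 and -2.83 on DM+Sham, -1.74, -1.61 and -1.60 on Control+RYGB, and -2.35 and -2.24 on DM+RYGB. No 2 groups overlapped, and both diabetic groups were below both control groups. Il1b fell by 1.31 in DM+Sham against Control+Sham (SE 0.10, adjusted p = 0.00067) and by 0.62 in DM+RYGB against Control+RYGB (SE 0.11, adjusted p = 0.0077). In diabetic rats it rose by 0.50 after RYGB (SE 0.11, adjusted p = 0.011), which is 0.07 below the median of all genes (-0.07 relative to it), and with median scaling the difference was -0.11 (adjusted p = 0.50). The interaction was 0.69 (SE 0.15, adjusted p = 0.022), and 0.40 with median scaling (adjusted p = 0.15).

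Il6, the cytokine that signals through Il6st, was lowest in diabetic sham rats. It was at -6.49, -6.52 and -6.28 on Control+Sham, -7.07, -7.27 and -7.23 on DM+Sham, -5.87, -5.66 and -5.67 on Control+RYGB, and -6.21 and -5.98 on DM+RYGB. DM+Sham was the lowest group and Control+RYGB the highest, and no 2 groups overlapped. Il6 fell by 0.73 in DM+Sham against Control+Sham (SE 0.14, adjusted p = 0.016), a call lost with quantile scaling (adjusted p = 0.053) and without Control+Sham 1, DM+Sham 1 or the averaged DM+Sham 2 and 3. It rose by 0.66 in Control+RYGB against Control+Sham (adjusted p = 0.020) and by 1.06 in DM+RYGB against DM+Sham (SE 0.15, adjusted p = 0.0025). With quantile scaling these differences were 0.07 (adjusted p = 0.78) and -0.25 (adjusted p = 0.31), so neither rise held across scalings.

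Tnf, the ligand of Tnfrsf1a and Tnfrsf1b, fell in DM+RYGB. Its values were -3.50, -3.56 and -3.63 on Control+Sham, -3.41, -3.48 and -3.45 on DM+Sham, -3.63, -3.88 and -3.89 on Control+RYGB, and -4.93 and -4.29 on DM+RYGB. The DM+RYGB arrays lay below all others, and the other groups lay within 0.5 log2 units. Tnf fell by 1.17 in DM+RYGB against DM+Sham (SE 0.21, adjusted p = 0.0052), by 0.85 against Control+RYGB (SE 0.21, adjusted p = 0.024) and by 1.05 against Control+Sham (SE 0.19, adjusted p = 0.0043). The call against Control+RYGB was lost without Control+RYGB 1, without the averaged Control+RYGB 2 and 3 and with only the groups compared. Diabetes in sham rats gave 0.12 (adjusted p = 0.70). Its interaction of -0.97 did not pass (adjusted p = 0.053), while median scaling gave -1.27 (adjusted p = 0.030). Within scan days the difference from Control+RYGB was -1.30 for DM+RYGB 1 and -0.41 for DM+RYGB 2.

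**Figure D2:**
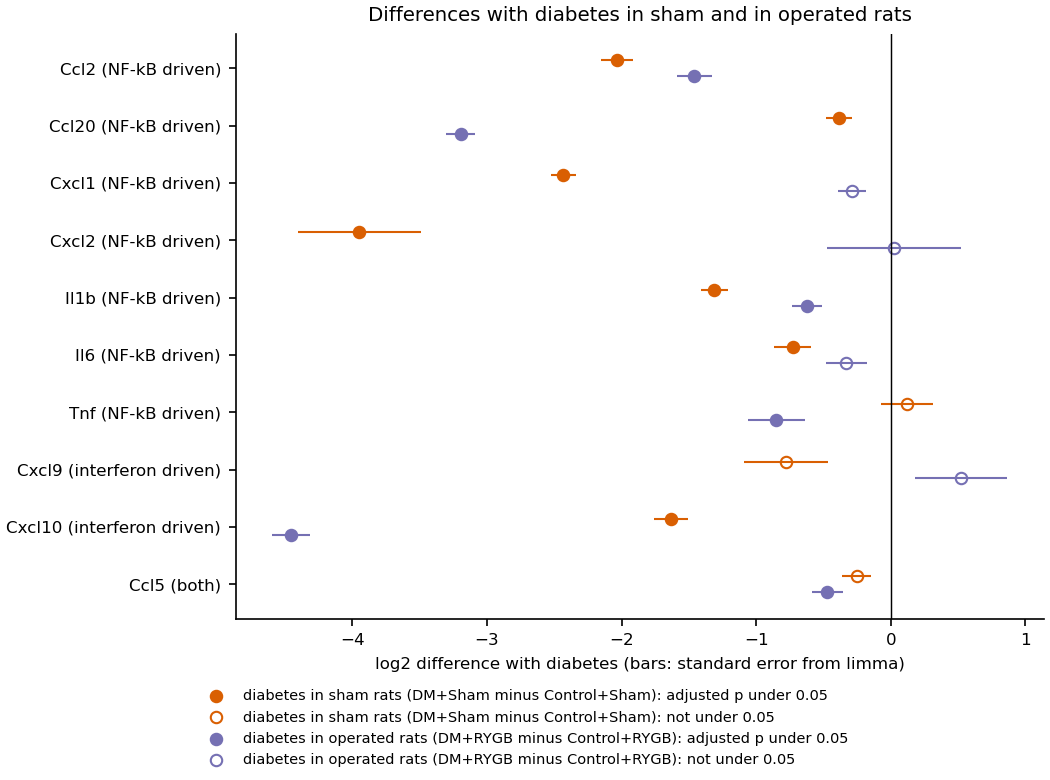
Log2 difference with diabetes (x axis, bars are standard errors from limma) for each gene, in sham rats and in operated rats. Filled points have an adjusted p under 0.05. Cxcl1 and Cxcl2 differ in sham rats (-2.43 and -3.95) but not past the threshold in operated rats by the main scaling (Cxcl1 is called there with median and quantile scaling), while Cxcl10 and Ccl20 differ more in operated rats (-4.46 and -3.20).

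**Figure D3:**
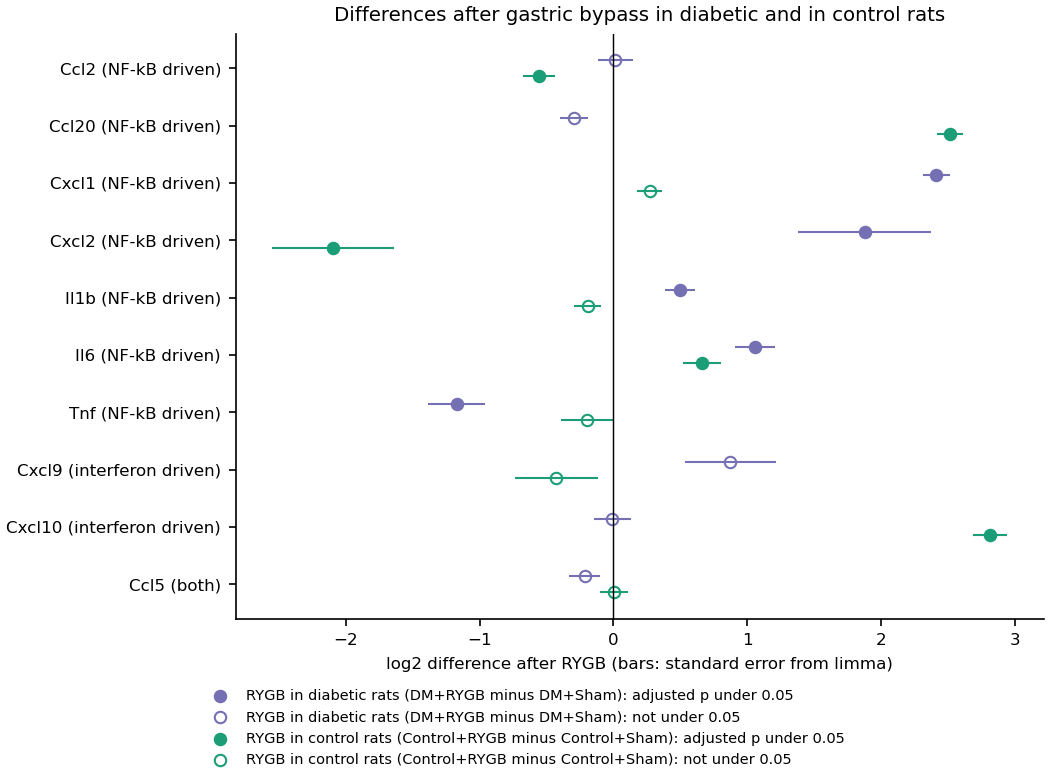
Log2 difference after RYGB (x axis, bars are standard errors from limma) for each gene, in diabetic and in control rats. Cxcl1 and Cxcl2 lie to the right in diabetic rats (2.42 and 1.88), Cxcl10 and Ccl20 to the right in control rats (2.82 and 2.52), and Cxcl2 on opposite sides of 0.

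Set against each other, the NF-kB driven and the interferon driven members did not form 2 patterns. In DM+Sham against Control+Sham 6 of 7 NF-kB driven and 1 of 2 interferon driven members fell, with medians of -1.31 and -1.20 beside 0.03 for all genes. In Control+RYGB against Control+Sham the NF-kB driven members split, with Ccl20 and Il6 higher, Ccl2 and Cxcl2 lower and a median of -0.19, and of the interferon driven pair Cxcl10 rose and Cxcl9 did not pass. In DM+RYGB against DM+Sham the medians were 0.50 and 0.43, both below the 0.57 of all genes. Over the 9 samples Cxcl10 varied most closely with Ccl20 (Pearson r 0.97) and hardly with Cxcl9 (r -0.08), while Ccl2 varied most closely with Il1b (r 0.94). Cxcl1 and Cxcl2 were at r 0.72, and Tnf and Il6 at r -0.46. These correlations describe 9 samples in 4 groups that share arrays and scaling, and carry no test.

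Over all named genes, those whose pattern was most like a member, by Pearson r over the same 9 samples, included Irf1 for both Cxcl10 (0.983) and Ccl20 (0.980). Gdf15 (0.989) and Mtfr1 (0.980) completed the list for Cxcl10, and Phf23 (0.986) and Qrfpr (0.983) for Ccl20. Ccl2 was most like Mex3b, Ube2t and Spmip4 (0.992 to 0.993), Cxcl1 most like Zp2 (0.993), Hmgb3 (0.989) and C4h12orf71 (0.976), and Cxcl2 most like Prpf38b (0.978), Nr4a2 (0.960) and Arhgap11a (0.959). For Il1b these were Knstrn, Paep and Letm1 (0.985 to 0.989), and for Il6 Vom1r103, Camk1 and Birc2 (0.974 to 0.979). For Tnf they were Zswim7, Ppara and Sos2 (0.974 to 0.993), for Ccl5 Rbmxl1, Pyurf and Dtnbp1 (0.971 to 0.973), and for Cxcl9 Cdadc1, Fscn1 and Ndufb11 (0.960 to 0.973).

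Chromosomal neighbours of the members did not all move with them, and they were picked after their values were seen. Ccl7, a monocyte attractant next to Ccl2 on chromosome 10, was at -3.59, -3.44 and -3.81 on Control+Sham, -5.52, -5.71 and -5.72 on DM+Sham, -4.20, -4.30 and -4.33 on Control+RYGB, and -3.66 and -3.23 on DM+RYGB. Unlike Ccl2, its DM+RYGB arrays were up with Control+Sham. Ccl7 fell in DM+Sham against Control+Sham (SE 0.18, adjusted p = 0.00096), as Ccl2 did, but rose by 2.17 in DM+RYGB against DM+Sham (SE 0.19, adjusted p = 0.00066), where Ccl2 gave 0.01.

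Cxcl11, the third ligand of Cxcr3 and next to Cxcl10 on chromosome 14, was at -1.99, -2.09 and -2.07 on Control+Sham, -1.62, -1.73 and -1.71 on DM+Sham, -0.28, -0.25 and -0.26 on Control+RYGB, and -1.49 and -1.49 on DM+RYGB. Like Cxcl10 it was highest in Control+RYGB, where it rose by 1.78 (SE 0.092, adjusted p = 0.00024). Unlike Cxcl10 it was not low in diabetic sham rats, where it rose by 0.38 (adjusted p = 0.036). Irf1, a factor induced by interferon and by NF-kB, was at 1.91, 1.90 and 1.72, at 1.34, 1.40 and 1.40, at 3.05, 3.02 and 3.09, and at 1.18 and 1.42 in the same order of groups. It rose by 1.21 in Control+RYGB against Control+Sham (adjusted p = 0.0022) and fell by 1.75 in DM+RYGB against Control+RYGB (adjusted p = 0.00037). Lta and Ltb, on either side of Tnf on chromosome 20, rose in DM+RYGB against DM+Sham by 2.55 (adjusted p = 0.0092) and 0.74 (adjusted p = 0.015), where Tnf fell. The median of all genes was 0.57 there, so little of the Ltb rise lies above it. Lta differed within DM+Sham, at -3.7 on DM+Sham 1 and -5.5 on DM+Sham 2 and 3, and was at -2.3 and -1.8 on DM+RYGB.

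**Figure D4:**
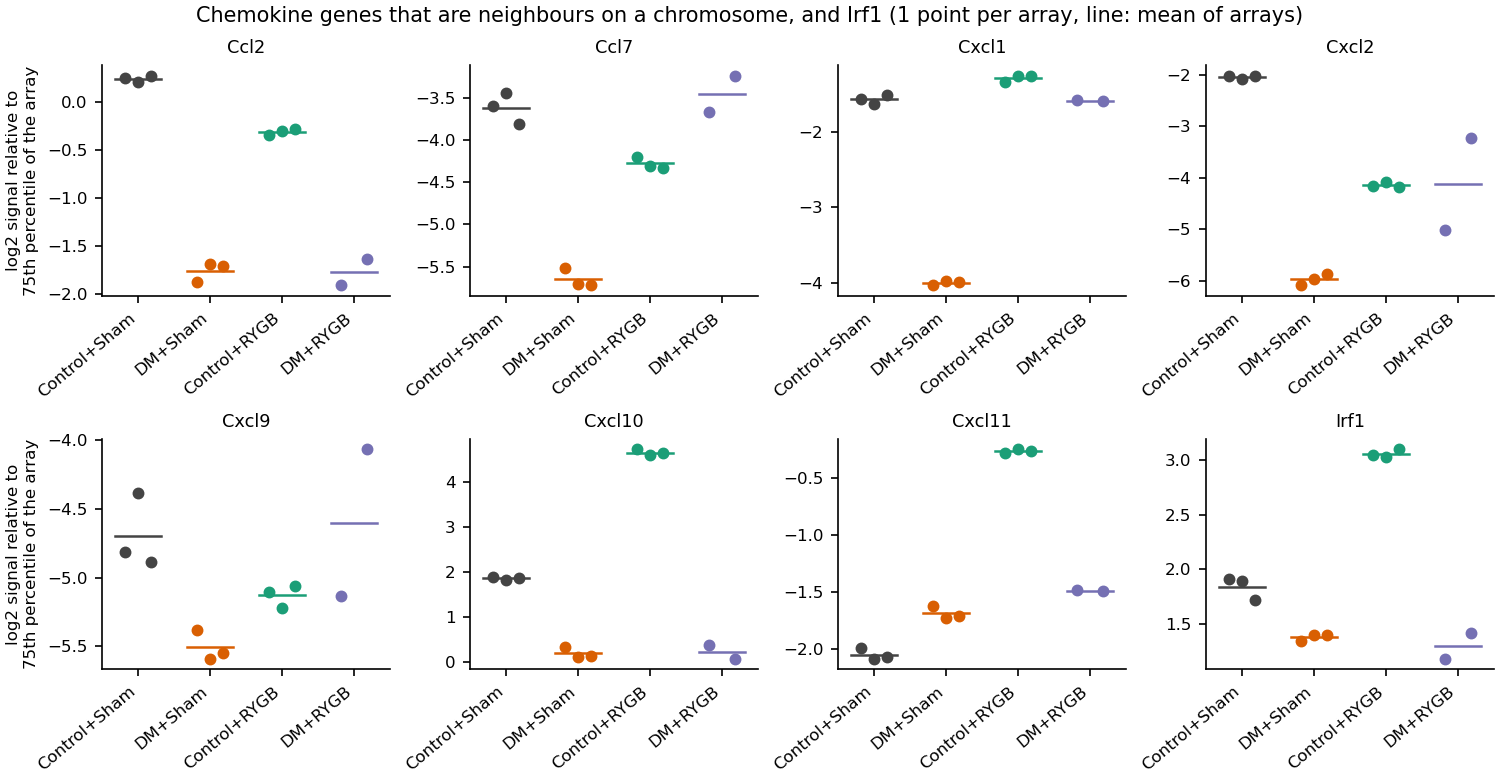
Log2 signal relative to the 75th percentile of the array (y axis), 1 point per array, line at the mean of arrays, for pairs of neighbouring chemokine genes and for Irf1. Ccl2 and Ccl7 part in DM+RYGB, and Cxcl10, Cxcl11 and Irf1 are all highest in Control+RYGB while Cxcl9 is not.

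Receptors of the members were measured for 15 of 17 genes. In DM+Sham against Control+Sham 3 fell and 0 rose, beside 7.58% and 8.96% of all genes. The 3 were the decoy receptor Il1r2 (-1.61, adjusted p = 0.0025), Ccr6 (-1.02, adjusted p = 0.045) and Ccr2 (-0.51, adjusted p = 0.046). In DM+RYGB against DM+Sham 5 rose and 1 fell, beside 41.9% of all genes that rose (0 to 9 and 0 to 2 over the alternative settings), with Ccr2 at 1.35 (adjusted p = 0.0011), Il1r2 at 1.52 (adjusted p = 0.0019) and Cxcr2 at 1.33 (adjusted p = 0.011), and with Tnfrsf1b lower at -0.58 (adjusted p = 0.011). In Control+RYGB against Control+Sham 3 rose, Cxcr2 (1.94, adjusted p = 0.0068), Il1rap (0.92, adjusted p = 0.016) and Ccr2 (0.47, adjusted p = 0.044), and 0 fell. As 21.6% of all genes rose there, the share that rose is at the background. Cxcr2 was near the floor in Control+Sham. On Control+Sham 2 it was at -7.35, below the lowest signal well above background on that array (-7.18). Of 22 measured genes for release and signalling of Il1b, Il6 and Tnf, 1 rose and 3 fell in DM+Sham against Control+Sham, beside 8.96% and 7.58% of all genes. In DM+RYGB against DM+Sham 8 rose and 3 fell, beside 41.9% and 10.9% of all genes. Over the alternative settings the latter counts ran from 2 to 9 and from 1 to 11.

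Other chemokines (24 of 26 measured) had 2 higher and 4 lower in DM+Sham against Control+Sham, beside 8.96% and 7.58% of all genes. Cxcl16 (-1.20, adjusted p = 0.005) and Cxcl13 (-1.48, adjusted p = 0.0054) were among the lower, with Ccl7. After RYGB in control rats 3 were higher and 2 lower, beside 21.6% and 5.5% of all genes, so the share that rose is not above the background. Ccl3 was at -0.98 (adjusted p = 0.0044) and Cxcl12 at 1.05 (adjusted p = 0.0058). After RYGB in diabetic rats 9 were higher and 2 lower, beside 41.9% of all genes higher and with 4 to 13 and 0 to 7 over the alternative settings, with Ccl4 at 1.79 (adjusted p = 0.0028), Xcl1 at 1.36 (adjusted p = 0.0017) and Ccl3 at -1.06 (adjusted p = 0.0016). Over the alternative settings the number higher in DM+Sham ran from 0 to 8 and was 7 without DM+RYGB 2.

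Of 11 subunits, kinases and inhibitors measured of 17, 1 rose and 2 fell in DM+Sham against Control+Sham, beside 8.96% and 7.58% of all genes. The 2 that fell were Bcl3 (-1.04, adjusted p = 0.0021) and the inhibitor Nfkbia (-0.68, adjusted p = 0.009), itself an NF-kB target. Nfkbia rose by 1.02 in DM+RYGB against DM+Sham (adjusted p = 0.0013), 1 of 6 that rose with 0 lower, beside 41.9% of all genes higher, and with 0 to 8 and 0 to 3 over the alternative settings. After RYGB in control rats 4 rose and 0 fell, beside 21.6% and 5.5% of all genes. Nfkb2 was at 0.86 (adjusted p = 0.0058) and Bcl3 at 0.78 (adjusted p = 0.0071). Of 21 other NF-kB targets measured of 23, 9 fell and 0 rose in DM+Sham against Control+Sham, beside 7.58% and 8.96% of all genes. Their median was -0.48 beside 0.03 for all genes. Gadd45b was at -2.10 (adjusted p = 0.00019), the complement factor Cfb at -2.21 (adjusted p = 0.00085) and the matrix protease Mmp9 at -0.99 (adjusted p = 0.0032). Cfb and Mmp9 rose after RYGB in diabetic rats, by 2.78 (adjusted p = 0.00042) and 1.60 (adjusted p = 0.00054), in a list of which 8 rose and 3 fell, beside 41.9% of all genes higher, and with 2 to 10 and 0 to 8 over the alternative settings. In control rats 3 of these targets rose and 4 fell, beside 21.6% and 5.5% of all genes.

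Type I interferon targets and Cxcl10 had opposite calls after RYGB in control rats. Of 24 type I interferon targets measured of 28, 12 fell and 2 rose in DM+Sham against Control+Sham (median -0.62), beside 7.58% and 8.96% of all genes. In Control+RYGB against Control+Sham, the comparison in which Cxcl10 rose, 11 fell and 2 rose, beside 5.5% and 21.6% of all genes (median -0.49 beside 0.29). Irf7, the factor that amplifies interferon production, fell by 1.58 there (adjusted p = 0.00035), and Mx1, which blocks viral replication, also fell (-1.10, adjusted p = 0.0025). In DM+RYGB against DM+Sham 16 rose and 1 fell (median 0.90 beside 0.57, and 41.9% of all genes rose), with Ifit2 at 1.36 (adjusted p = 0.00059) and Rtp4 at 1.79 (adjusted p = 0.0012), while Cxcl10 gave -0.01. Over the alternative settings the number that rose there ran from 6 to 18 and was 16 without DM+RYGB 2, and the number that fell in Control+RYGB ran from 0 (scan day as a block) to 16. Of 19 other interferon gamma targets measured of 24, 3 rose and 3 fell in Control+RYGB against Control+Sham, beside 21.6% and 5.5% of all genes. Cxcl11, Irf1 and the adhesion molecule Icam1 (0.69, adjusted p = 0.013) were the 3 that rose, and Gbp2, a GTPase, fell by 1.04 (adjusted p = 0.007).

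Immediate early genes, which respond within minutes to stimulation and also to the handling of tissue, had most of their calls in the direction of Cxcl10 and Ccl20 in 3 comparisons. Of 27 measured of 29, 16 fell and 1 rose in DM+Sham against Control+Sham (median -1.09, and 7.58% of all genes fell). In Control+RYGB against Control+Sham 11 rose and 4 fell (median 0.38 beside 0.29 for all genes, of which 21.6% rose and 5.5% fell). Of the calls over all genes 79.7% were higher there, so the direction of most calls is that of the background. In DM+RYGB against Control+RYGB 16 fell and 2 rose (median -0.90, and 10.6% of all genes fell). Egr2 was at -2.26 (adjusted p = 0.00018), 1.61 (adjusted p = 0.00085) and -4.00 (adjusted p = 4.4e-05) in these 3 comparisons. Atf3 was at -2.33 (adjusted p = 7.3e-05), 0.99 (adjusted p = 0.0022) and -3.07 (adjusted p = 4.6e-05). Jund went against the list in the first of them, at 3.67 (adjusted p = 8.4e-05). After RYGB in diabetic rats 12 rose and 2 fell (1 to 15 and 1 to 8 over the alternative settings, median 0.56 beside 0.57 for all genes), where Cxcl10 gave -0.01 and Ccl20 -0.30. As 41.9% of all genes rose there, the share that rose is at the background. The part of these genes' shift in the chemokine values was not tested. Of 12 measured mRNA decay factors that act on cytokine transcripts, 1 rose in DM+Sham against Control+Sham, beside 8.96% of all genes. In DM+RYGB against DM+Sham 4 rose and 2 fell, beside 41.9% and 10.9% of all genes. In Control+RYGB against Control+Sham 4 rose, beside 21.6% of all genes.

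Markers of other cell types were set beside these values, and bulk RNA cannot tell fewer cells of a type from less RNA per cell. The summed level of 7 general leukocyte markers was 3.09 to 3.18 in Control+Sham and 3.06 to 3.09 in Control+RYGB, against 2.93 in DM+Sham and 2.82 to 2.97 in DM+RYGB. Every diabetic array was thus below every control array in this sum, as for Ccl2, Il1b and Cxcl10. Taken 1 by 1, only 1 of the 7 was called lower and 0 higher in DM+Sham against Control+Sham, beside 7.58% and 8.96% of all genes (median -0.05 beside 0.03). In DM+RYGB against Control+RYGB 3 were lower and 0 higher, beside 10.6% of all genes lower. In DM+RYGB against Control+Sham 4 were lower and 1 higher, beside 12.0% of all genes lower. The 12 macrophage markers summed to 4.08 to 4.46 in Control+Sham, 3.82 to 4.32 in DM+Sham, 4.74 to 5.18 in Control+RYGB and 4.47 to 4.89 in DM+RYGB. The sum, in which bright markers weigh most, was thus higher in Control+RYGB than in both sham groups. Taken 1 by 1, however, 0 of the 12 were called higher or lower in Control+RYGB against Control+Sham. Their median difference there was 0.12, below the 0.29 of all genes. The 10 proximal tubule markers summed to 6.94 to 7.47, 7.25 to 7.55, 7.97 to 8.33 and 6.32 to 7.13 in the same order of groups. In DM+RYGB against DM+Sham 6 of them fell, beside 10.9% of all genes. The 16 markers of T and NK cells summed to 0.41 to 0.54 in Control+Sham, 0.00 to 0.05 in DM+Sham, 0.49 to 0.67 in Control+RYGB and 0.55 to 0.68 in DM+RYGB. The sum was thus lowest in DM+Sham, where Cxcl1, Cxcl2, Cxcl9, Il1b and Il6 were also lowest by group mean. Ccl5, Ccl20 and Tnf were instead lowest in DM+RYGB, and Ccl2 and Cxcl10 were about equally low in both diabetic groups. In DM+RYGB against DM+Sham 10 of the 16 markers rose, beside 41.9% of all genes, with a median of 0.78 beside 0.57 for all genes. The part of these cell types in the results was not tested. Neutrophil markers (6 of 9 measured) differed between arrays of a group, at -3.04 on DM+Sham 1 and -0.95 and -0.92 on DM+Sham 2 and 3. Over those 3 arrays Cxcl1 stayed between -4.03 and -3.98. Urothelial markers (7 of 8 measured) were highest in Control+Sham. Against that group 6 of them fell in DM+Sham and in Control+RYGB, beside 7.58% and 5.5% of all genes. Ccl2 and Cxcl2 also fell in both, and most calls of type I interferon targets were lower in both. The part of this tissue was not tested in these or in the other members that fell in DM+Sham against Control+Sham.

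**Figure D5:**
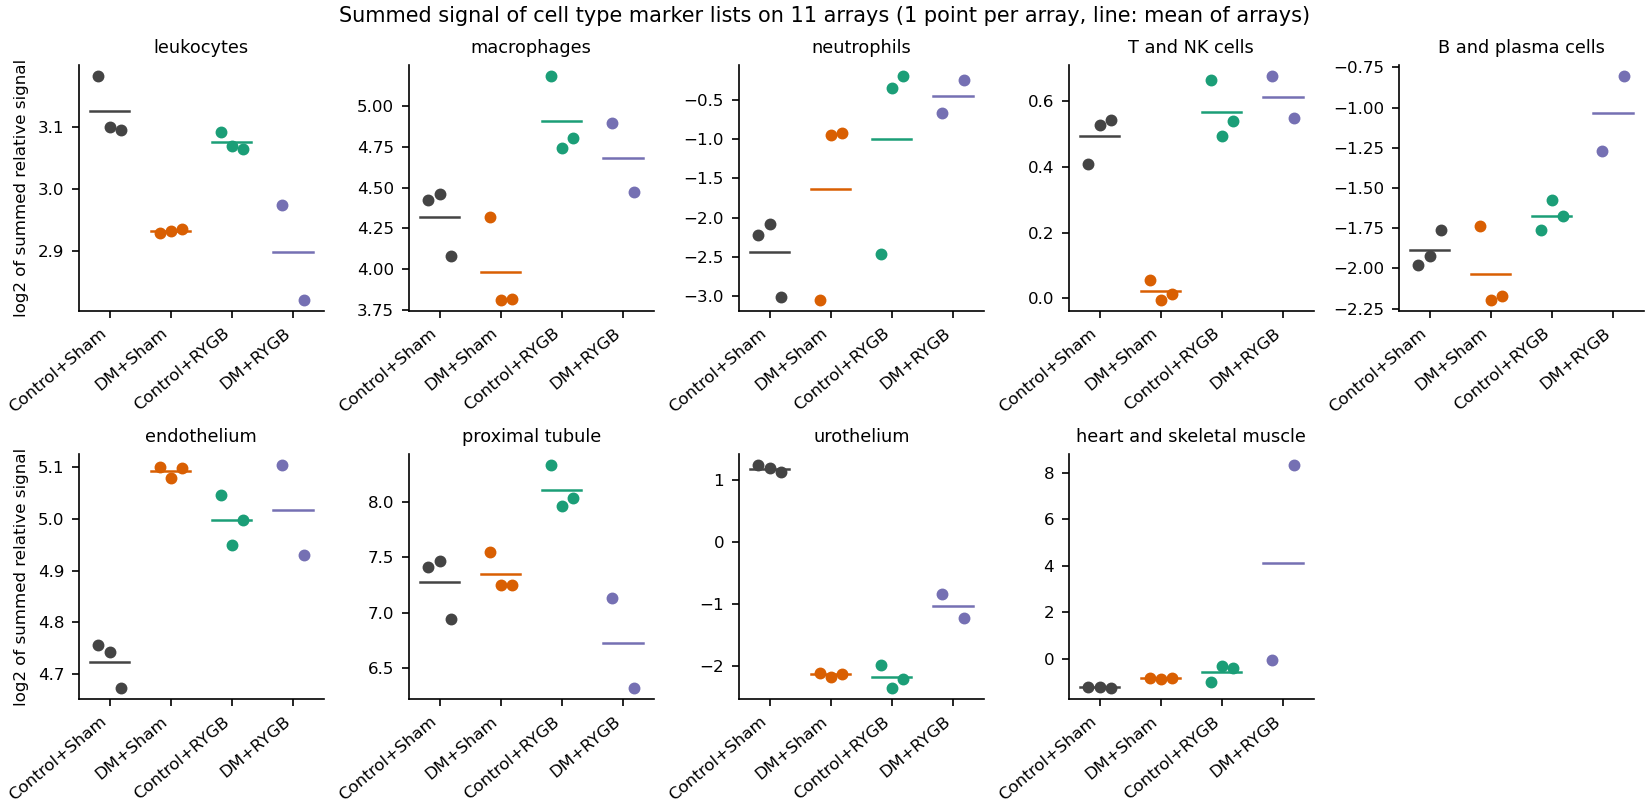
Log2 of the summed relative signal of the measured markers of 9 cell types or tissues (y axis), 1 point per array, line at the mean of arrays. Leukocyte markers lie at 2.82 to 2.97 on the diabetic arrays and 3.06 to 3.18 on the control arrays, urothelial markers are highest in Control+Sham, and DM+RYGB 2 stands apart at 8.34 for heart and skeletal muscle.

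Scan day and slide position limit these comparisons. No scan day held both groups for Control+RYGB or DM+RYGB against Control+Sham, and all Control+RYGB arrays lay at a slide position that no other array had, so group and position cannot be told apart there. DM+RYGB 2, the array with the muscle markers, was also alone at its slide position, while DM+RYGB 1 had the position of the sham arrays. Position and array cannot be told apart for DM+RYGB 2 either. With scan day as a block, which leaves 2 residual degrees of freedom, the members called were 2, 1, 0, 3, 0 and 0 in the 6 comparisons in the order first given. The 2 are Ccl2 and Cxcl1, the 1 is Cxcl1, and the 3 are Ccl2, Ccl20 and Cxcl10. The averaged DM+Sham pair was split for this fit, as its 2 arrays were scanned on different days. Arrays that differed by less than repeated spots thus counted there as 2 samples, and the p-values of this fit rest partly on them. At an unadjusted p under 0.05 in that limma fit, the 3 comparisons with 0 calls had 4, 4 and 6 members. The count of 5 in Control+RYGB against Control+Sham fell to 2 without Control+Sham 1, without Control+Sham 2, without Control+RYGB 1 and without the averaged Control+RYGB 2 and 3, the 2 being Ccl20 and Cxcl10. The count of 5 in DM+RYGB against DM+Sham fell to 3 without the averaged DM+Sham 2 and 3, that of 6 in DM+RYGB against Control+RYGB to 3 without the averaged Control+RYGB 2 and 3, and that of 5 in the interaction rose to 8 without DM+RYGB 1. Without DM+RYGB 2 the 6 counts were 8, 6, 6, 7, 7 and 6.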

How the data were processed

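The deposited spot intensity is on a linear scale and background-subtracted, per the file headers, which name Agilent Feature Extraction 11.0.1.1. A deposited table of log2 values with 1 common median (7.07) correlated with the scanner log2 values at 0.9887 to 0.9969, and how the authors made it is not given in the sources used here. Of 44254 spots 1377 controls were left out, and spots of a probe were averaged into 30367 probes, 18005 with a symbol. Log2 signal was set relative to each array's 75th percentile, the probe with the highest mean stood for a gene, and a gene was tested if its probe was well above background on 2 or more arrays. The model (limma 3.58.1, R 4.3.3) had a mean for each of the 4 groups (lmFit, eBayes, 9 samples, 5 residual degrees of freedom), with Benjamini-Hochberg adjustment and a threshold of 0.05, after the code was tested on simulated data. The number of arrays limits the precision.

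Other genes were named by a rule: up to 4 genes of each list with the smallest p in a comparison, and the 3 named genes most like each member. Neighbours, Irf1 by array, and some receptors and immediate early genes across comparisons were added after their values were seen. The members and lists were chosen with earlier results of these data known. The 22 alternatives cover background correction, scaling, the deposited table, probe filters and summaries, separate arrays, replicate and scan day blocks, array weights, the groups compared and leaving out each sample. Same-numbered arrays were not paired by origin in the labels (15 pairs, r from -0.38 to 0.45, 5 above 0.1). Promoters and neighbours come from RefSeq tables of GRCr8, and the array was designed on rn4, so no array coordinates are given.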

Additional observations from a re-analysis of the deposited data

Results flagged for a closer look

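For 5 of the 10 members the effect of RYGB differed between diabetic and control rats by the interaction test itself (limma, adjusted p under 0.05). Cxcl2 gave 3.97, with a rise of 1.88 in diabetic rats and a fall of 2.09 in control rats. Cxcl1 gave 2.14, with a rise in diabetic rats. Il1b gave 0.69, which was not called under median or quantile scaling. Cxcl10 gave -2.82 and Ccl20 gave -2.81, both with a rise in control rats. With scan day as a block none of the 5 was called (adjusted p from 0.052 upwards), and no day holds both Control+RYGB and Control+Sham.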

How the results depend on the processing

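Over 60 member differences and 22 settings, 1102 of 1310 values kept direction and side of the threshold, 91 were no longer called, 64 became called, 43 uncalled values moved and 10 reversed. With scan day as a block and the averaged DM+Sham pair split, 2 members were called for DM+Sham against Control+Sham and 1 for RYGB in diabetic rats. In that fit 3 were called for diabetes in operated rats and 0 in the other 3 comparisons. For RYGB in diabetic rats (5) the count was 3 with quantile scaling, 8 with 11 separate arrays, 2 with only the groups compared and 2 under all 3 scalings. For RYGB in control rats (5) it was 8 with array weights, and for diabetes in operated rats (6) it was 3 with only the groups compared. For the interaction (5) it was 8 with 11 separate arrays and 8 with the replicate number as a block, which did not pair the samples. Leaving out 1 sample gave 5 to 8, 3 to 6, 2 to 6, 3 to 8, 7 to 7 and 4 to 8 members in the 6 comparisons. Reversals for RYGB in diabetic rats were Ccl2 (-0.59) and Il1b (-0.11) under median scaling and Il6 under normexp (-0.0863), quantile scaling (-0.25) and the deposited table (-0.21). Il6 also reversed for RYGB in control rats under normexp (-0.0036), and for DM+RYGB against Control+Sham under normexp (-0.27), quantile scaling (-0.85) and the deposited table (-0.76). Cxcl2 in DM+RYGB against Control+RYGB was -0.87 without DM+RYGB 2 and 0.92 without DM+RYGB 1. The causes were not tested. Over all genes, the number called ranged from 284 to 9136 for diabetes in sham rats (4176), and from 4937 to 16924 for RYGB in diabetic rats (13343). It ranged from 0 to 16105 for RYGB in control rats (6843), from 1692 to 11081 for diabetes in operated rats (7745), from 0 to 17328 for DM+RYGB against Control+Sham (15289) and from 93 to 9518 for the interaction (5589), lowest with scan day as a block except for diabetes in operated rats.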

Other observations

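Of 30 other cytokines measured of 35, 3 rose and 4 fell in DM+Sham against Control+Sham, beside 8.96% and 7.58% of all genes. Il33, an alarmin of the IL-1 family, differed in the opposite direction to Il1b in the first of the comparisons that follow. By the main scaling it also did so in the second. Il33 rose by 1.11 in DM+Sham against Control+Sham (limma, adjusted p = 0.0015), fell by 1.66 in DM+RYGB against DM+Sham (adjusted p = 0.0004) and rose by 0.85 in Control+RYGB against Control+Sham (adjusted p = 0.0052). Spp1 (osteopontin), a secreted protein that attracts macrophages, fell by 1.67 in DM+RYGB against DM+Sham (adjusted p = 0.0017) and by 2.46 in DM+RYGB against Control+RYGB (adjusted p = 0.0006). Csf1, the growth factor of macrophages, rose by 0.78 (adjusted p = 0.0032) and 1.09 (adjusted p = 0.0014) in the same comparisons. Of 18 measured interferon receptors and factors, 12 rose and 1 fell in DM+RYGB against DM+Sham, beside 41.9% of all genes that rose, and with 5 to 13 and 0 to 5 over the alternative settings, with Ifngr1 at 1.04 (adjusted p = 0.0013).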
